A study of Mus musculus with 2 samples.

Results

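The genes described here encode the enzymes and carriers that make, recycle and balance nucleotides and that supply folate one-carbon units for this synthesis. The set was given as a list of 37 gene symbols, and all 37 were found among the 43346 mouse gene entries of the deposited tables. Their levels were read in the liver of mouse embryos at 12.5 days of development, in 2 total RNA libraries of a single group. By the labels, replicate 1 was a pool of livers from 120 embryos and replicate 2 a pool from 88 embryos. Both pools were of the healthy B6NCrl strain with the sexes mixed, and no genetic change or treatment is named. A pool averages its embryos, so these libraries do not give the variation between embryos, and in bulk tissue fewer cells of a type cannot be told apart from less RNA per cell.

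As background, cells build purine and pyrimidine nucleotides step by step from amino acids, carbon dioxide and a sugar phosphate called PRPP, or recover them from free bases and nucleosides by salvage. Ribonucleotide reductase then converts ribonucleotides into the deoxyribonucleotides needed for DNA, and thymidylate synthase makes the thymine nucleotide with a folate cofactor. Fetal liver is the main site of blood formation in mid-gestation, and its erythroid precursors divide rapidly.

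The libraries held 37.6 M expected counts (replicate 1) and 34.7 M (replicate 2). An expected count is an estimated number of reads, and TPM is that number scaled to transcript length and library total, so that levels of different genes can be set side by side. Globin genes took 25.6% of TPM in replicate 1 and 26.2% in replicate 2, and spike-in RNA took 5.18% and 5.61%. The marker genes of highest TPM were erythroid and hepatoblast ones. The 6 hepatoblast markers lay between 13.1 and 5312 TPM, the 6 erythroid markers between 119 and 48427 TPM and the 3 megakaryocyte markers between 36.2 and 664 TPM over both libraries. The 3 macrophage markers lay between 8.20 and 47.4 TPM, the 3 endothelial markers between 7.94 and 27.6 TPM and the 3 mesenchymal markers between 5.97 and 133 TPM. Of 3 lymphoid markers, Cd3e was at 0 in both libraries and none passed 0.10 TPM. The 3 heart markers lay between 1.12 and 19.5 TPM, led by Myl7 with 19.5 and 18.9 TPM. Myl7 thus lay above the hepatoblast marker Hnf4a, which had 13.4 and 13.1 TPM.

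Most of the nucleotide genes were abundant. In both libraries, 36 of 37 members reached 1 TPM, 32 reached 10 TPM and 12 reached 100 TPM. Under the alternatives tried, FPKM and posterior means included, the count at 1 TPM was 36 or 37 and the count at 100 TPM lay between 9 and 14. Among the 16962 protein-coding genes with a read, 69.0% reached 1 TPM, 40.3% reached 10 TPM and 6.83% reached 100 TPM. The median of the members' mean TPM was 51.5, against 5.78 TPM over those protein-coding genes. Together the members held 0.319% of TPM in replicate 1 and 0.311% in replicate 2. Levels spanned 896-fold, between Rrm2 at 470.5 ± 14.2 TPM and Folr1 at 0.525 ± 0.120 TPM (SD, n = 2, here and for every mean and ratio below). The Folr1 values lie below their own deposited intervals, which begin at 0.835 TPM in replicate 1 against 0.902 TPM in replicate 2, and with the authors' posterior means the span was 299-fold.

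**Figure D1:**
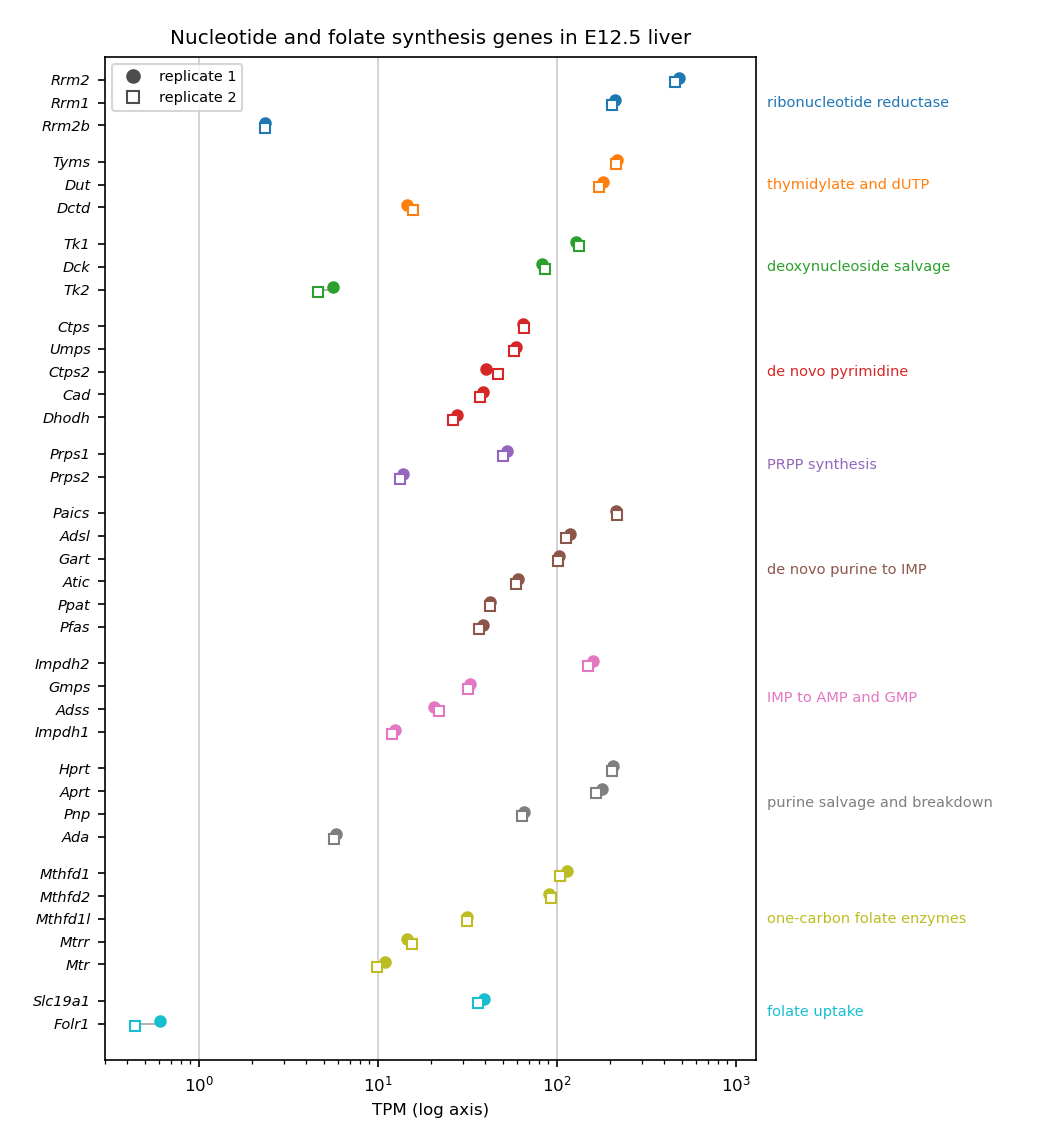
TPM of each of the 37 members (log axis) in replicate 1 (filled circle, upper) and replicate 2 (open square, lower), grouped by role and ordered by mean TPM within a role. Rrm2 lies farthest right at 481 and 460.4 TPM, Rrm2b and Tk2 lie far below the other members of their roles, and Folr1 is the only member under 1 TPM.

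Ribonucleotide reductase, the enzyme that turns ribonucleoside diphosphates into deoxyribonucleotides, had alternative small subunits at the most unequal levels of the isozyme pairs compared. Rrm2 (ENSMUSG00000020649.7, chromosome 12, 24708241 to 24714146, plus strand of mm10) encodes the small subunit used for DNA replication and had 481 TPM in replicate 1 against 460.4 TPM in replicate 2. Those values rested on 30591 and 27052 reads. Rrm1 (ENSMUSG00000030978.9, chromosome 7, 102441695 to 102469771, plus strand), the large catalytic subunit shared by both forms of the enzyme, had 211 TPM in replicate 1 against 204 TPM in replicate 2, from 25937 and 23165 reads. The alternative small subunit Rrm2b (ENSMUSG00000022292.11, chromosome 15, 37923952 to 37961318, minus strand), known as a target of p53 that supplies deoxyribonucleotides outside S phase, had 2.36 TPM in replicate 1 against 2.36 TPM in replicate 2, from 228 and 232 reads. Rrm2 RNA was thus 199 ± 6.03 times Rrm2b RNA and 2.27 ± 0.0112 times Rrm1 RNA. The level of Rrm2b is uncertain. The authors' posterior mean for it was 3.32 and 3.31 TPM, and the deposited interval began at 2.40 TPM in replicate 1 against 2.41 TPM in replicate 2, above the deposited TPM of both libraries. The deposited TPM of Rrm2 and Rrm1 lay above their own intervals in both libraries, by at most 0.696%. With posterior means the ratio of Rrm2 over Rrm2b was 139, and with all reads of each gene set on its main coding transcript it was 267.

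The 237 bases before the annotated start of Rrm2, the most abundant member, are shown because they carry the CCAAT and GGGCGG motifs that were searched in the members' promoters. The stretch lies at chr12:24708004-24708240 on the plus strand of GRCm38.p6 (RefSeq), with matches on either strand in capitals.
Rrm2 upstream: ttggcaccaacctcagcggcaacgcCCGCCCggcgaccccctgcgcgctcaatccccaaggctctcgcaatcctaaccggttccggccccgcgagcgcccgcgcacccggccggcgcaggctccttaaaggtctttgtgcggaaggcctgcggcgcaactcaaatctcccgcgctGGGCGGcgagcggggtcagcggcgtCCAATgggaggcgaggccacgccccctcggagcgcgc
Windows of 250 bases before and 50 bases after the start were available for 33 members and 17492 protein-coding genes. GGGCGG (reverse complement CCGCCC) lay in at least 1 window of 29 members, 87.9%, and of 49.2% of all those genes. CCAAT lay in 15 members, 45.5%, against 42.3% of the genes. CACGTG, the letters of an E-box, lay in 4 members (Atic, Impdh2, Paics and Tyms), 12.1%, against 8.91%. The motif letters TTTCGCGC and TTTGGCGC lay in no window of the 33 members, and in 0.526% and 0.726% of the genes. These counts describe letters in fixed windows only, and whether any factor binds there was not tested.

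By deposited gene TPM, the thymidylate and dUTP genes divided into a high pair and a low gene. Tyms (ENSMUSG00000025747.8, chromosome 5, 30058202 to 30073617, minus strand), thymidylate synthase, had 219 TPM in replicate 1 against 214 TPM in replicate 2, from 7416 and 6774 reads. Dut, which breaks down dUTP and so keeps uracil out of DNA, had 182 TPM in replicate 1 against 172 TPM in replicate 2. Dctd, which deaminates dCMP to the dUMP used by thymidylate synthase, had 14.6 TPM in replicate 1 against 15.8 TPM in replicate 2. By gene TPM the ranges of Tyms and Dut did not overlap, and both lay far above Dctd in each library. The place of Tyms depends on the transcripts counted. On protein-coding transcripts only, Tyms had 16.0 and 17.1 TPM against 11.9 and 13.4 TPM for Dctd. With all reads on the main coding transcript, Tyms had 76.9 and 75.9 TPM, below Dut at 199 and 191 TPM.

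Most Tyms TPM was assigned to transcripts other than the one annotated as protein coding. The protein-coding transcript Tyms-201 held 7.31% of Tyms TPM in replicate 1 and 7.96% in replicate 2, and 20.8% and 22.5% of its reads. Tyms-205, annotated for nonsense-mediated decay, was the top transcript with 43.4% and 42.9% of TPM, and the retained-intron transcript Tyms-202 held 35.5% and 34.9%. Tyms-201 is 3163 bases long in the deposited table, of which 2172 are 3′ untranslated in the M21 annotation, while Tyms-205 and Tyms-202 have deposited lengths of 797 and 816 bases. Setting all Tyms reads on the length of Tyms-201 gave 76.9 TPM in replicate 1 against 75.9 TPM in replicate 2 in place of 219 and 214 TPM. Tyms-205 has a deposited length of 797 bases but 618 bases in M21, so its model changed between annotation versions. In M21 its first exon ends 101 bases before that of Tyms-201, and both join the same second exon. The 40 bases across that junction in the GENCODE M21 transcripts are shown to make the difference visible, with the second exon in capitals.
Tyms-201: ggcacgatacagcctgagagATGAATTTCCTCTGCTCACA
Tyms-205: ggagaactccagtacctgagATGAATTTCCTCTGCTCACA
The upstream stretch of Tyms at chr5:30073626-30073875 on the minus strand of GRCm38.p6 (RefSeq) is also shown, because Tyms is 1 of the 4 members with CACGTG, which here is followed by GGGCGG after 1 base (both in capitals).
Tyms upstream: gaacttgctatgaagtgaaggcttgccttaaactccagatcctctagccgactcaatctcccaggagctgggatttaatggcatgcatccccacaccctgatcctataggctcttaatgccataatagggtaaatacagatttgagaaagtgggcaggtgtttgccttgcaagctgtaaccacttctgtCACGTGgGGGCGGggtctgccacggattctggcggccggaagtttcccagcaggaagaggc

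Deoxynucleoside salvage showed a cytosolic and a mitochondrial form at very different levels. Tk1, the cytosolic thymidine kinase of dividing cells, had 128 TPM in replicate 1 against 134 TPM in replicate 2. Tk2, the mitochondrial thymidine kinase, had 5.63 TPM in replicate 1 against 4.62 TPM in replicate 2, from 408 and 310 reads. Dck, the deoxycytidine kinase, had 83.0 TPM in replicate 1 against 86.3 TPM in replicate 2. Tk1 RNA was 25.8 ± 4.38 times Tk2 RNA. The ratio was 14.9 when only protein-coding transcripts were counted. The retained-intron transcript ENSMUST00000141939.1 held 32.1% of Tk1 TPM in replicate 1 and 35.7% in replicate 2, whereas Tk2 has a single transcript in the deposited tables. Tk1 exons also overlap 83 bases of Afmid on the opposite strand, and Afmid had 5.83 TPM in replicate 1 against 5.86 TPM in replicate 2.

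**Figure D2:**
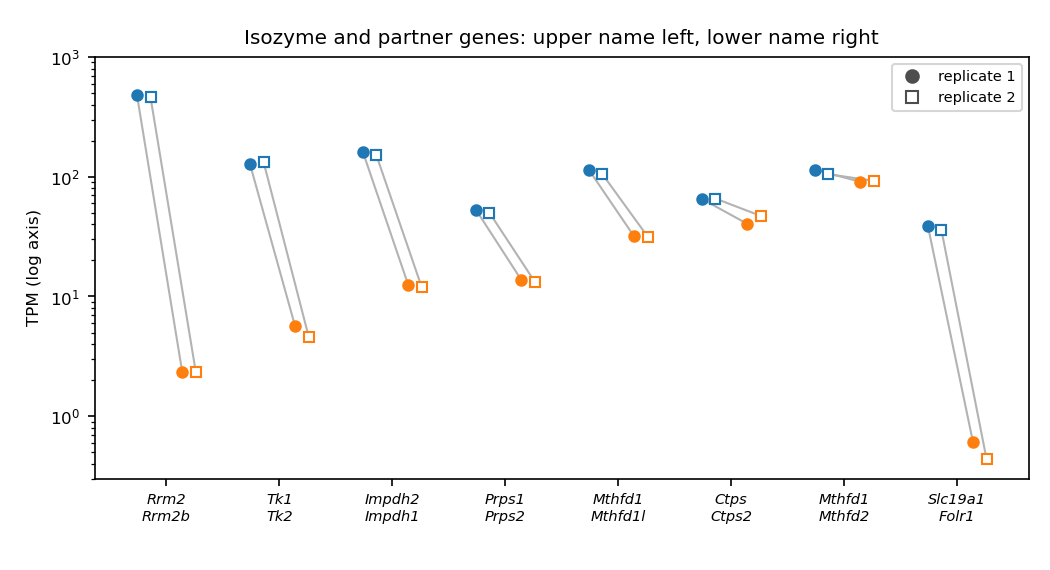
TPM (log axis) of isozyme and partner genes in replicate 1 (filled circles) and replicate 2 (open squares), with the upper-named gene on the left (blue) and the lower-named gene on the right (orange), joined within a library. The steepest lines belong to Rrm2 and Rrm2b at a ratio of 199 and Slc19a1 and Folr1 at 73.2, and the flattest to Mthfd1 and Mthfd2 at 1.196.

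De novo pyrimidine synthesis was read at intermediate levels, with all 5 genes between 26.3 and 65.8 TPM over both libraries. Cad, the 3-part enzyme of the first steps, had 38.8 TPM in replicate 1 against 37.4 TPM in replicate 2. Dhodh, the mitochondrial enzyme that oxidises dihydroorotate, had 27.7 TPM in replicate 1 against 26.3 TPM in replicate 2 and was the lowest of the group. Umps, which makes UMP, had 59.2 TPM in replicate 1 against 57.8 TPM in replicate 2. RNA of both CTP synthase isozymes was read, which does not give their parts in CTP synthesis. Ctps had 65.3 TPM in replicate 1 against 65.8 TPM in replicate 2, and Ctps2 had 40.5 TPM in replicate 1 against 47.2 TPM in replicate 2. Ctps RNA was 1.503 ± 0.153 times Ctps2 RNA. This pair was closer than Rrm2 and Rrm2b, Tk1 and Tk2, Impdh2 and Impdh1, or Prps1 and Prps2. The folate enzymes Mthfd1 and Mthfd2 were closer still, at 1.196. The TPM of Ctps2 was divided among coding transcripts of unequal length. ENSMUST00000112300.1, of 741 bases, held 43.3% of its TPM in replicate 1 and 50.2% in replicate 2, and ENSMUST00000101095.4, of 1665 bases, held 36.7% and 34.3%.

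PRPP, the activated sugar phosphate of both pathways, is made by PRPP synthetases. Prps1 had 53.1 TPM in replicate 1 against 50.01 TPM in replicate 2 and Prps2 had 13.8 TPM in replicate 1 against 13.3 TPM in replicate 2, a ratio of 3.79 ± 0.0566. Prps1l3, a close copy of Prps1 on chromosome 12, is no member but shares sequence with it. It had 53.7 TPM in replicate 1 against 51.6 TPM in replicate 2, from 2740 and 2435 reads, against 3117 and 2719 reads for Prps1. The coding sequences differ at 30 of 954 bases, an identity of 96.9%, and the longest identical coding run is 164 bases. Of all 100-base windows in Prps1 transcripts, 3.43% also occur in Prps1l3, and reads within such windows could be given to either gene. The GENCODE M21 coding bases 604 to 693 of both genes are shown because they hold 6 of the differences, which are in capitals.
Prps1: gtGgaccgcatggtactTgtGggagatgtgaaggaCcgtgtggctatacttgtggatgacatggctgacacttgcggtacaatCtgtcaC
Prps1l3: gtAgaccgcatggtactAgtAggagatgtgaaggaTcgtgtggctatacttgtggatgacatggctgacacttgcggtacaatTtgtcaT

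The 6 genes that build IMP, the first complete purine nucleotide, were not at equal levels although their products act in 1 chain. Ppat, the first committed step, had 42.4 TPM in replicate 1 against 42.4 TPM in replicate 2. Gart, an enzyme of 3 activities, had 103 TPM in replicate 1 against 101.6 TPM in replicate 2, and Pfas, which follows Gart's formyl transfer, had 38.7 TPM in replicate 1 against 36.7 TPM in replicate 2. Paics, a 2-activity enzyme, was the highest with 214 TPM in replicate 1 against 217 TPM in replicate 2. Adsl, adenylosuccinate lyase, had 118 TPM in replicate 1 against 114 TPM in replicate 2, and Atic, which closes the purine ring, had 61.0 TPM in replicate 1 against 59.2 TPM in replicate 2. Paics and Ppat are divergent neighbours on chromosome 5 (Paics at 76951307 to 76967509 on the plus strand, Ppat at 76913249 to 76951578 on the minus strand). Their exons overlap over 272 bases at the 5′ ends, and the labels do not give strandedness, so reads from that overlap could not be assigned to a strand with certainty. Gart exons overlap the antisense gene Gm15964 (0.37 TPM in replicate 1 against 0.45 TPM in replicate 2) with the same limit. Paics RNA was 5.08 ± 0.0471 times Ppat RNA and 5.72 ± 0.266 times Pfas RNA. On protein-coding transcripts only, Paics had 205.87 TPM in replicate 1 against 210.65 TPM in replicate 2. Ppat then had 41.27 and 38.95 TPM and Pfas 15.14 and 13.35 TPM, so the distance from Pfas was wider.

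Transcript types differed among these purine genes. Pfas-205, annotated as a retained intron, held 55.7% of Pfas TPM in replicate 1 and 57.7% in replicate 2, against 39.0% and 36.3% for the coding transcript Pfas-201. For Adsl, the nonsense-mediated decay transcript Adsl-205 held 39.1% and 42.0%, and the coding transcript Adsl-204 held 39.1% and 38.8%, so the top place was nearly tied in replicate 1. The retained-intron transcript Atic-205 held 32.8% and 34.4% of Atic. The leading transcripts of Paics were both coding, with Paics-202 at 46.8% and 48.2% and Paics-203 at 40.5% and 40.8%.

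At the branch after IMP, the guanine side was led by 1 isozyme. Impdh2, the IMP dehydrogenase of growing cells, had 161 TPM in replicate 1 against 150.5 TPM in replicate 2, and Impdh1, the other isozyme, had 12.6 TPM in replicate 1 against 12.0 TPM in replicate 2, a ratio of 12.7 ± 0.158. Gmps, which makes GMP, had 32.8 TPM in replicate 1 against 32.2 TPM in replicate 2. On the adenine side, Adss, adenylosuccinate synthase, had 20.6 TPM in replicate 1 against 22.1 TPM in replicate 2, and Impdh2 RNA was 7.31 ± 0.693 times Adss RNA. Of all 100-base windows in Impdh2 transcripts, 31.4% also occur in the pseudogene Impdh2-ps, which was given 4.25 TPM in replicate 1 against 4.51 TPM in replicate 2, so a part of the reads of this pair could be placed on either.

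The base salvage genes Hprt and Aprt ranked high and the breakdown gene Ada ranked low. Hprt, which recovers hypoxanthine and guanine, had 207 TPM in replicate 1 against 204 TPM in replicate 2, and Aprt, which recovers adenine, had 179.6 TPM in replicate 1 against 166 TPM in replicate 2. Pnp, purine nucleoside phosphorylase, had 65.8 TPM in replicate 1 against 64.0 TPM in replicate 2. Ada, adenosine deaminase, had 5.84 TPM in replicate 1 against 5.70 TPM in replicate 2, from 292 and 264 reads. The deposited identifier of Pnp (ENSMUSG00000021871.13) belongs to the read-through gene Gm49342 in M21, but both of its deposited transcripts are Pnp transcripts there, and the entry was matched through them. Of the windows in Pnp, 17.1% occur in other genes, and the paralog Pnp2 holds 5.62% of them all. Pnp2 had 3.57 TPM in replicate 1 against 3.50 TPM in replicate 2.

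The folate enzymes were led by Mthfd1, the cytosolic enzyme that interconverts one-carbon folates, with 114 TPM in replicate 1 against 105 TPM in replicate 2. Mthfd2, its mitochondrial counterpart of dividing and embryonic cells, had 90.9 TPM in replicate 1 against 92.5 TPM in replicate 2, and Mthfd1l, the mitochondrial formate-releasing enzyme, had 31.8 TPM in replicate 1 against 31.7 TPM in replicate 2. Mthfd1 RNA was 1.196 ± 0.0862 times Mthfd2 RNA and 3.46 ± 0.199 times Mthfd1l RNA. Methionine synthase Mtr had 11.1 TPM in replicate 1 against 9.89 TPM in replicate 2, and Mtrr, the reductase that reactivates it, had 14.5 TPM in replicate 1 against 15.5 TPM in replicate 2. Mthfd1l had a second coding transcript, ENSMUST00000043735.7, with 28.9% and 31.0% of its TPM.

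The 2 folate carriers in the set differed widely. Slc19a1 (ENSMUSG00000001436.11, chromosome 10, 77032241 to 77061002, plus strand), the reduced folate carrier, had 39.1 TPM in replicate 1 against 36.1 TPM in replicate 2. Folr1 (ENSMUSG00000001827.7, chromosome 7, 101858331 to 101870788, minus strand), a folate receptor, had 0.610 TPM in replicate 1 against 0.440 TPM in replicate 2, from 9 and 11 reads. Slc19a1 RNA was 73.2 ± 12.7 times Folr1 RNA, a value that few reads set. With the posterior means of 1.52 and 1.57 TPM for Folr1 it was 24.7. The Folr1 reads fell on different transcripts in the libraries. In replicate 1, ENSMUST00000140584.1 held 67.2% of its TPM and ENSMUST00000106982.3 held 32.8%, and in replicate 2 all of it lay on ENSMUST00000106981.3.

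In the order of mean levels, Rrm2 came first, followed by Tyms, Paics, Rrm1 and Hprt, and the last places were taken by Mtr, Ada, Tk2, Rrm2b and Folr1. The place of Tyms depends on the lengths of the transcripts its reads were assigned to, and which lengths hold in this tissue was not tested. With all reads on the main coding transcript, Tyms would lie below Dck (83.0 and 86.3 TPM) and Mthfd2 (89.8 and 91.6 TPM). Of the 36 pairs of neighbours in this order, 26 had no overlap between their 2 libraries and 10 overlapped. The overlapping neighbours included Tyms and Paics, Rrm1 and Hprt, and Dut and Aprt. A total of 21 members had a mean between 10 and 100 TPM.

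Over all members, 9 had a single transcript in the deposited tables, and 29 had at least 90% of their TPM on protein-coding transcripts in both libraries. The median coding share was 98.6%, against 98.2% over protein-coding genes of at least 1 TPM. In both libraries, the top transcript was not annotated protein coding for 4 members (Tyms, Pfas, Adsl and Dhodh), and for 5.81% of those 11704 genes. In these counts and shares, a transcript with no entry in M21 was counted as not protein coding, for members and all genes alike. For Dhodh the top transcript, ENSMUST00000069058.10, with 78.2% and 77.5% of TPM, has no entry in M21, so its type is unknown here. The same transcript was on top in both libraries for 36 members, the exception being Folr1. No share over all genes was computed for the counts of 9, 29 and 36 members, so they are not read as particular to this set.

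**Figure D3:**
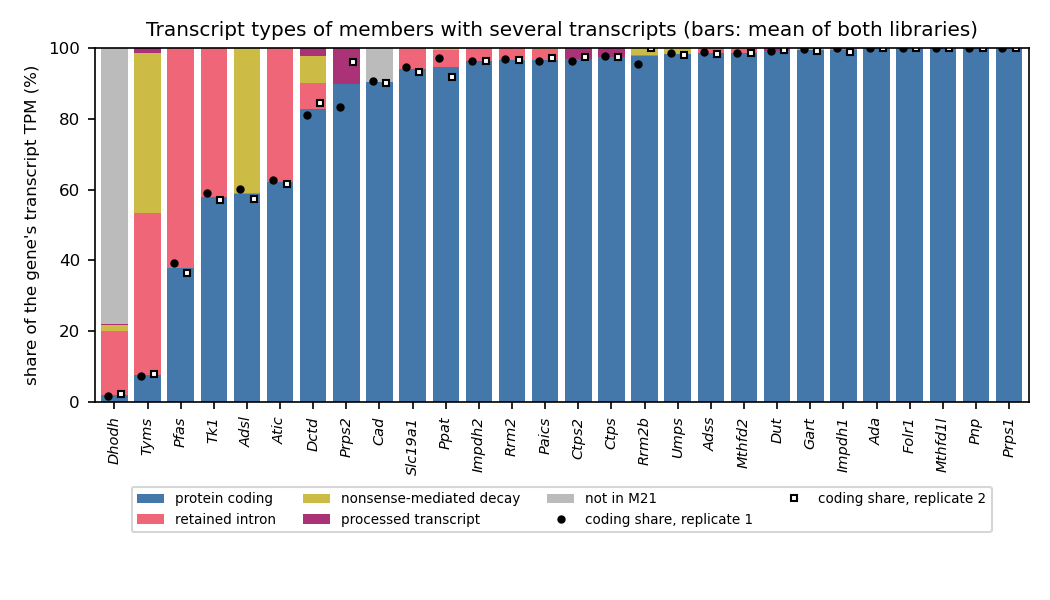
Share of each gene's transcript TPM (%) by annotated type, for the 28 members with several transcripts, as bars of the mean over both libraries, with the protein-coding share of replicate 1 (filled circle) and replicate 2 (open square). Dhodh, Tyms and Pfas lie under 50% coding, with the grey part of Dhodh standing for a transcript not in M21, and most other members lie above 90%.

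The pools differed little for these genes. Among the 36 members with a mean of at least 50 expected counts, 26 had a higher TPM in replicate 1, 9 had a lower one and Rrm2b was equal, against 52.1% higher over all 13017 genes tested in the same way. The 9 lower members were Ctps2, Dctd, Adss, Mtrr, Tk1, Dck, Mthfd2, Paics and Ctps. The median log2 ratio of TPM + 0.1, replicate 1 over replicate 2, was 0.04 for the members and 0.01 for all those genes. A ratio centred on the spike-ins moved every gene up by 0.12, so 35 members were then higher and of the lower members only Ctps2 kept its side. The median centred ratio was 0.15 for the members and 0.12 for all those genes. Most genes were thus higher too, though their share was not counted. No member was at least 25% apart (higher over lower library), against 8.68% of the genes, and 33 of the 36 lay within 1.1-fold, against 67.8%. The members were more deeply read than most genes, with a median of 4549.6 reads against 926, and low counts spread ratios.

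Of these 36, the members beyond 1.1-fold were Tk2, Ctps2 and Mtr. Folr1, with too few reads to be counted among them, had 1.31-fold more TPM in replicate 1 but 9 reads against 11. Tk2 had 5.63 TPM in replicate 1 against 4.62 TPM in replicate 2, a log2 ratio of 0.28, and its read ratio relative to library size was 1.21 (counting interval 1.04 to 1.41). Mtr had a log2 ratio of 0.16 and a read ratio of 1.11 (counting interval 1.03 to 1.201). Ctps2 had a log2 ratio of -0.22 in TPM but a read ratio of only 0.927 (counting interval 0.867 to 0.991), and the share of its short transcript ENSMUST00000112300.1 differed between the libraries, as given above. Prps2 had slightly more TPM in replicate 1, with a log2 ratio of 0.05, but fewer reads, with a read ratio of 0.917 (counting interval 0.850 to 0.990). Its coding transcript ENSMUST00000026839.4 held 83.4% of TPM in replicate 1 and 96.2% in replicate 2.

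The 95% counting interval of the read ratio lay above 1 for 13 of the 36 members, 36.1%, against 12.1% of all genes tested, and below 1 for 5, 13.9%, against 13.3%. The 5 below were Dck, Ctps2, Prps2, Adss and Mtrr. Deeper counts give narrower intervals, and there is 1 library per pool, so these intervals cover counting error alone. Marker sums also differed between the pools. The erythroid markers summed to 93806 TPM in replicate 1 against 97161 TPM in replicate 2. The hepatoblast markers summed to 8148 and 7983 TPM and the megakaryocyte markers to 781 and 679 TPM. Hba-a1 and Hbb-bs made up most of the erythroid sum, and Afp most of the hepatoblast sum. Of the 6 erythroid markers, 2 were higher in replicate 1 and 4 lower. Of the 6 hepatoblast markers, 4 were higher and 2 lower, and all 3 megakaryocyte markers were higher. The part of these markers in the members' ratios was not tested.

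**Figure D4:**
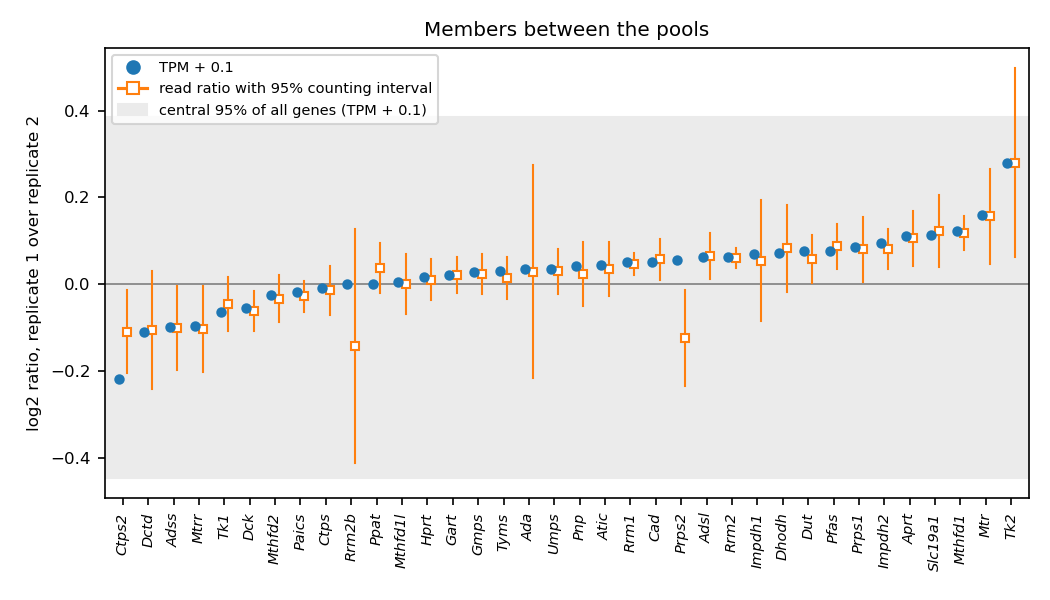
Log2 ratio of replicate 1 over replicate 2 for the 36 members with enough reads, as TPM + 0.1 (filled circles) and as reads relative to library size with the 95% counting interval (open squares with lines), over a grey band holding the central 95% of all genes tested, between -0.45 and 0.38. All circles lie inside the band, between -0.22 for Ctps2 and 0.28 for Tk2.

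Related pathway genes outside the set give the setting. Of 60 such genes (20 of folate and serine metabolism, 20 of nucleoside and deoxynucleotide handling and 20 of purine handling), 52 reached 1 TPM in both libraries, 35 reached 10 TPM and 10 reached 100 TPM, with a median of 16.6 TPM. The highest was Phgdh, the first enzyme of serine synthesis, with 331 TPM in replicate 1 against 302 TPM in replicate 2. Gmpr, which returns GMP to IMP, had 314 TPM in replicate 1 against 311 TPM in replicate 2. Slc29a1, an equilibrative nucleoside transporter, had 232 TPM in replicate 1 against 225 TPM in replicate 2. Nme1, a nucleoside diphosphate kinase, had 187 TPM in replicate 1 against 161 TPM in replicate 2, and Dtymk, the thymidylate kinase that follows Tyms and Tk1, had 174 TPM in replicate 1 against 171 TPM in replicate 2. The serine hydroxymethyltransferases, which load one-carbon units on folate, had 144 TPM in replicate 1 against 139 TPM in replicate 2 for mitochondrial Shmt2 and 61.8 TPM in replicate 1 against 52.6 TPM in replicate 2 for cytosolic Shmt1, a ratio of 2.48 ± 0.219. Every one of the 60 had a read in at least 1 library, and Prps1l1, with 6 reads in replicate 1, had none in replicate 2.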

How the data were processed

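Total RNA-seq of E12.5 mouse liver was used from 2 libraries of 1 group. Per the labels' protocols, extraction used Ambion mirVana, and a low-input SMARTer manual is linked. Per the file headers, the tables use assembly mm10 and GENCODE M4. The software for alignment and quantification is not given in the sources used here. Expected counts per gene and transcript (estimated, not normalized), TPM, FPKM, the percent of a gene's TPM per transcript, and posterior means with intervals were deposited by the authors, per the file headers. The TPM total includes spike-ins.

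The members and lists were chosen with earlier results of these data known. All 37 members are named. Of 60 related genes, the 5 highest, Shmt1, Shmt2 and any with no read are named, and some results under this rule are not reported here. Transcripts are named where they hold at least 25% of a member's TPM without being the top one, or where the top one is not annotated protein coding. Symbols, types and coordinates came from GENCODE M21 (42448 entries by gene identifier, 163 by transcripts), and shares were recomputed from transcript TPM. With 1 group no test or p-value was possible. Pool ratios used TPM + 0.1, which understates ratios of low genes, for genes with a mean of at least 50 expected counts. Ratios of rounded expected counts carry exact 95% Clopper-Pearson intervals. The labels name no molecular identifiers, and PCR copies of a molecule are not independent, so intervals and floors cover counting error only. A floor of 3 reads equals 0.0953 TPM in replicate 1 and 0.103 TPM in replicate 2 at an effective length of 1 kb.

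Shared sequence was counted as identical 100-base windows of M21 transcripts. Python 3.11.15 with pandas 2.3.3, scipy 1.17.1 and biopython 1.88 was used, with edgeR 4.0.16 and DESeq2 1.42.0 in R 4.3.3 for alternative scaling factors only. The scripts for scaling and intervals were tested on simulated data. Alternatives were other scalings, pseudocounts and filters, FPKM, coding transcripts only and single libraries.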

Additional observations from a re-analysis of the deposited data

How the results depend on the processing

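No paired analysis was possible because the series has 1 group. Of 112 alternative values, 93 stayed within tolerance and 19 moved. The tolerance was 1.5 times for counts, the SD over both libraries for levels and ratios, and 0.06 for the median log2 ratio. Some of the 93 could not have moved. Each of 2 values lies within their SD of the mean, so ratios from single libraries always stayed. FPKM ratios within a library repeat TPM ratios, and TPM summed over transcripts repeats the gene TPM. The tally of 93 is thus no measure of stability. Within tolerance, the count of members at 100 TPM, 12 as reported, became 9 in FPKM and 14 without spike-ins and globins. It became 11 with posterior means and 10 with all reads on the main coding transcript. Members higher in replicate 1 became 35, against 26, when centred on spike-ins, which turned 8 of the 9 lower members. That count could not pass the tolerance upwards, because 1.5 times 26 exceeds the 36 members tested, so its place within tolerance does not show stability. The median of the members' mean level of 51.5 TPM became 54.5 without spike-ins, 75.0 without spike-ins and globins, and 43.2 in FPKM. The median log2 ratio between the pools of 0.04 became 0.15 when centred on spike-ins, where the median over all genes tested was 0.12. The count of members at least 25% apart, 0 as reported, became 1 (Tk2) when centred on spike-ins, and 1 (Folr1) with a mean of at least 10 expected counts, and with no filter on low counts. With protein-coding transcripts only, Tk1 over Tk2 became 14.9 from 25.8, Impdh2 over Impdh1 12.3 from 12.7, and Prps1 over Prps2 4.25 from 3.79.

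The next 2 alternatives were chosen after seeing the data. With posterior mean TPM, Rrm2 over Rrm2b became 139 from 199, Impdh2 over Impdh1 11.5 and Slc19a1 over Folr1 24.7 from 73.2. With all reads on the main coding transcript, Rrm2 over Rrm2b became 267, Tk1 over Tk2 20.3, Ctps over Ctps2 1.72 from 1.503, Impdh2 over Impdh1 12.1, Prps1 over Prps2 4.18 and Slc19a1 over Folr1 97.3, and Tyms had 76.9 and 75.9 TPM. The cause was not tested. With single libraries, Tk1 over Tk2 ranged between 22.7 and 28.9. Depth limits Folr1 most, at 9 and 11 reads.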
